A study of Homo sapiens with 8 samples.

Results

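Integrin and laminin subunits were taken as the protein-coding genes whose symbols name an integrin alpha chain, an integrin beta chain or a laminin alpha, beta or gamma chain. This gave 38 of the 27945 genes counted, of which 26 were integrin genes (18 alpha and 8 beta) and 12 were laminin genes. Nascent transcription had been measured by fastGRO-seq, a nuclear run-on assay in which 4-thio-UTP is built into RNA by polymerases already at work on a gene, in IMR90 cells, a line of primary human lung fibroblasts. The control cells are labelled wild type and carry no hairpin in their labels. The 3 other groups are senescent cells expressing a control hairpin (shControl), a hairpin against METTL3 (shMETTL3) or a hairpin against METTL14 (shMETTL14). By the study's methods senescence was driven by an oncogenic RAS fused to the oestrogen receptor, delivered by retrovirus and switched on with 100 nM 4-hydroxytamoxifen, with harvest on day 6. One hairpin per gene was delivered by lentivirus, and the study describes 2 independent experiments, which are the 2 libraries of each group. Control and senescent shControl cells therefore differ in senescence and in hairpin infection, and these cannot be told apart here.

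Integrins are receptors made of an alpha and a beta chain that span the plasma membrane and tie the matrix outside the cell to the actin cytoskeleton inside it. The alpha chain largely sets the ligand, so that some pairs bind collagen, others laminin, and others the RGD sequence of fibronectin and vitronectin. Laminins are trimers of an alpha, a beta and a gamma chain that form the sheet-like base of basement membranes, and the LAMA3 and LAMB3 chains are best known from the basement membranes of epithelia. Fibroblasts hold on to collagen and fibronectin largely through integrins that carry the beta1 chain.

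The 8 libraries held 14897360 to 20306299 counts, of which 86.2% to 92.5% lay in rows of ribosomal RNA, leaving 1513930 to 2048475 counts for all other genes. The members took 0.504% and 0.498% of those counts in control cells, 0.820% and 0.775% in shControl, 0.774% and 0.759% in shMETTL3, and 0.602% and 0.631% in shMETTL14 cells. Counts cover the whole gene span, introns included, and normalised counts below are counts divided by the relative effective size of the library (TMM scaling). Among the fibroblast markers all 8 reached 10 counts in a library, with 8020 to 26917 counts in sum, whereas none of the 7 leukocyte markers did. METTL3 gave 77 and 47 counts in shControl and 16 and 19 in shMETTL3 cells (log2 change −2.04 ± 0.31 SE, adjusted p = 1.8e-05, edgeR). METTL14 gave 24 and 28 counts in shControl and 18 and 14 in shMETTL14 cells, a difference that did not pass the test (−0.86 ± 0.34, adjusted p = 0.076, edgeR). Nascent counts measure neither mature RNA nor protein.

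Of the 38 members, 25 passed the filter on low counts and were tested among 12844 genes. In senescent shControl against control cells 9 of the 25 were higher, where 13.3% of all genes tested were higher, and 8 were lower, where 13.3% of all genes were lower. Knockdown of METTL3 in senescent cells went with 6 members higher (12.3% of all genes) and 6 lower (11.2% of all genes). With knockdown of METTL14, 2 members were higher (9.15% of all genes) and 11 were lower (12% of all genes). The 2 knockdowns were compared with the same shControl libraries. The members' median log2 change was 0.04 in senescence, 0.20 with shMETTL3 and −0.20 with shMETTL14, beside −0.03, −0.03 and −0.00 over all genes tested. Scaling by library size alone moved the median of all genes to −0.53, 0.58 and 0.35 in these comparisons, and the split of higher and lower members to 6 and 13 in senescence, 13 and 1 with shMETTL3, and 8 and 6 with shMETTL14. Changes are therefore read relative to the bulk of the genes. In total 23 members were called in at least 1 of the 3 comparisons (48.2% of all genes tested), 5 in all 3 (4.69% of all genes), and 2 (ITGA6 and ITGAE) in none. ITGAX and LAMB3 reached the filter's level in both libraries of shMETTL14 cells and of no other group, so their place among the tested genes rests on the libraries where they are high. With these 2 left out, 1 of 23 members was higher and 11 were lower with shMETTL14, and 7 were higher and 8 lower in senescence.

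**Figure D1:**
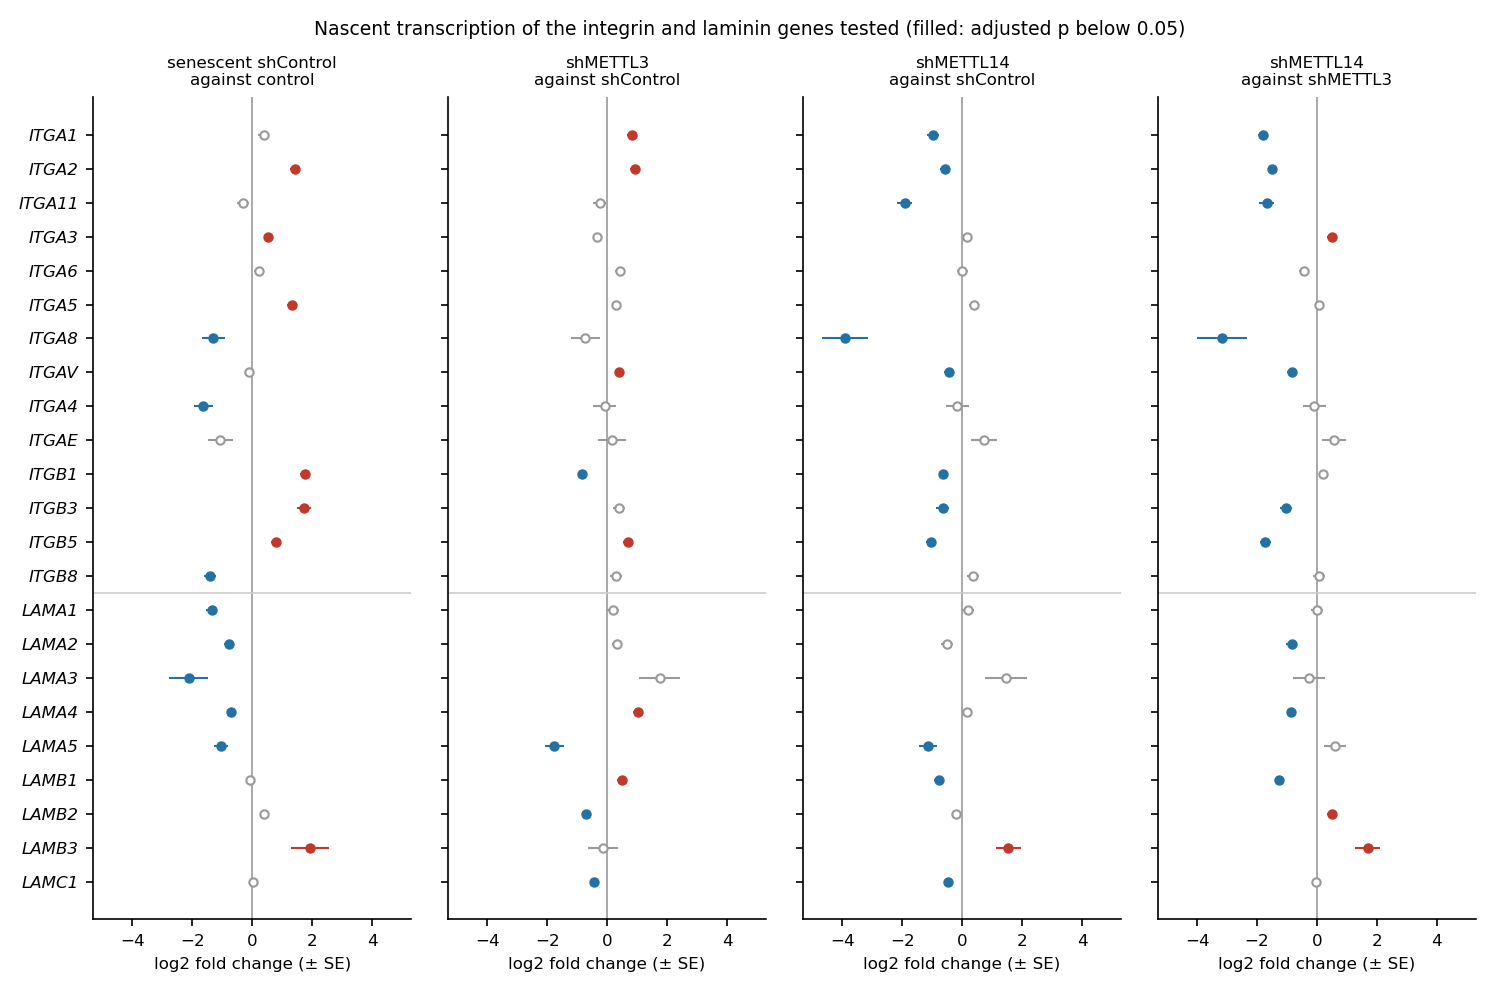
Log2 fold changes with their standard errors (x axis) for 23 of the 25 members tested (y axis, integrins above the grey line, laminins below), in 4 comparisons. Filled points passed the test (red higher, blue lower). All 5 laminin alpha genes lie to the left of 0 in the first panel, and 8 integrin genes are filled blue in the third. ITGAX, which had no count in control cells, and 1 other member are not drawn.

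Of the 3 collagen-binding alpha genes tested, 2 rose with shMETTL3 (12.3% of all genes) and all 3 fell with shMETTL14 (12% of all genes). ITGA2 encodes the alpha2 chain, a collagen receptor also found on platelets, and lies at chr5:52285156-52390609 (hg19, as are all gene positions here). Its normalised counts were 813 and 786 in control, 2265 and 2014 in shControl, 3815 and 4257 in shMETTL3, and 1160 and 1718 in shMETTL14 cells. No 2 groups overlapped. ITGA2 rose in senescence by 1.42 ± 0.16 SE on the log2 scale (adjusted p = 7.2e-08, edgeR). It rose further with shMETTL3, by 0.92 ± 0.15 (adjusted p = 7.6e-05), and fell with shMETTL14 (−0.57 ± 0.16, adjusted p = 0.0087). The rises held without any 1 library, whereas the fall with shMETTL14 missed the threshold under scaling by library size alone (−0.23, adjusted p = 0.25) and without shControl replicate 1 (−0.49, adjusted p = 0.14) or shMETTL14 replicate 1 (−0.34, adjusted p = 0.18).

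ITGA1, the neighbouring gene on the same strand, ends 35671 bases before ITGA2 starts, and encodes the alpha1 chain, which binds collagen IV among others. It stood at 270 and 281 normalised counts in control, 396 and 329 in shControl, 572 and 712 in shMETTL3, and 135 and 236 in shMETTL14 cells. The senescent shControl libraries were above the control libraries, but the difference of 0.39 ± 0.18 did not pass the test (adjusted p = 0.10, edgeR). It ranged from −0.11 to 0.54 over 18 alternatives. Some called it higher, such as the fit of only the 2 groups compared (0.44, adjusted p = 0.00098). ITGA1 rose with shMETTL3 (0.83 ± 0.17, adjusted p = 0.00078) and fell with shMETTL14 (−0.97 ± 0.19, adjusted p = 0.00036). Without shControl replicate 2 the rise was 0.69, with an adjusted p of 0.050. PELO lies almost wholly within ITGA1 and held 67 to 127 counts in a library. With its counts taken off, the changes were 0.94 with shMETTL3 and −1.32 with shMETTL14.

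ITGA11 encodes the alpha11 chain, a receptor for fibrillar collagen of fibroblasts. Normalised counts were 221 and 186 in control, 180 and 149 in shControl, 173 and 104 in shMETTL3, and 30.0 and 56.9 in shMETTL14 cells. The control libraries lay above and the shMETTL14 libraries below those of every other group, while shControl and shMETTL3 overlapped. The change with shMETTL14 was −1.92 ± 0.25 on the log2 scale (adjusted p = 2.6e-06, edgeR), the steepest fall among members with more than a few counts, and it ranged from −2.45 to −1.55 over all alternatives. ITGA11 did not pass the test in senescence (−0.31 ± 0.20, adjusted p = 0.28) or with shMETTL3 (−0.25 ± 0.21, adjusted p = 0.44). The fourth gene of the group, ITGA10, had 22 counts in all and lies within the span of larger NBPF genes.

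Of the laminin-binding alpha genes 2 were tested, and the 1 call among the 3 comparisons was that of ITGA3 in senescence. ITGA3, whose chain pairs with beta1, gave normalised counts of 186 and 166 in control, 240 and 272 in shControl, 226 and 182 in shMETTL3, and 312 and 264 in shMETTL14 cells. The rise in senescence was 0.54 ± 0.15 (adjusted p = 0.0094, edgeR), but it was 0.04 under scaling by library size alone, 0.55 with DESeq2 (adjusted p = 0.057), and 0.47 and 0.46 without control replicate 2 or shControl replicate 2 (adjusted p = 0.12 in both). ITGA6, whose chain pairs with beta1 or beta4, ranged from 87.1 to 151 normalised counts over the 8 libraries and passed none of the 3 tests (adjusted p from 0.077 to 0.98). ITGA7, known from muscle, had 12 counts in all.

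Of the alpha chains that recognise RGD, ITGA5 rose in senescence and ITGA8 fell. ITGA5 encodes the alpha5 chain of the main fibronectin receptor. Its normalised counts were 412 and 374 in control, 1014 and 946 in shControl, 1403 and 1024 in shMETTL3, and 1319 and 1241 in shMETTL14 cells, so all 6 senescent libraries lay above both control libraries. The rise in senescence was 1.32 ± 0.15 (adjusted p = 1.2e-07, edgeR), and it ranged from 0.82 to 1.40 over the alternatives. The further differences of 0.31 ± 0.15 with shMETTL3 (adjusted p = 0.13) and 0.39 ± 0.15 with shMETTL14 (adjusted p = 0.059) did not pass the test. By library size alone both passed (0.91 and 0.74, adjusted p = 2.0e-06 and 0.00021). That with shMETTL14 also passed with upper-quartile scaling, a replicate block or only the 2 groups compared (adjusted p = 0.046, 0.042 and 0.025). The whole of ITGA5 lies within LOC102724050, a row of the opposite strand with 443 to 1405 counts in a library, and the counts did not separate strands. Among 299 pairs of genes in which an inner gene lies within an outer gene of the opposite strand, and the inner gene has at least 100 counts, the outer gene had at least as many counts in every library in all 299. ITGA5 and LOC102724050 transcription can thus not be told apart.

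ITGAV, whose chain pairs with several beta chains including beta3, beta5 and beta8, was at 376 and 410 normalised counts in control and 359 and 374 in shControl cells. It was at 431 and 544 with shMETTL3 and at 262 and 279 with shMETTL14, on either side of shControl. Both differences passed the test (0.41 ± 0.14, adjusted p = 0.035 and −0.44 ± 0.15, adjusted p = 0.032, edgeR). Neither is firm. By library size alone the second was −0.09 (adjusted p = 0.75). With DESeq2 the adjusted p was 0.10 and 0.12, and leaving out shControl replicate 1 or 2 gave 0.37 and 0.43 with shMETTL3 (adjusted p = 0.21 and 0.16) and −0.47 and −0.41 with shMETTL14 (adjusted p = 0.12 and 0.19). The lowest value with shMETTL3, 0.21, came without shMETTL3 replicate 2 (adjusted p = 0.36). The calls were also lost without either control replicate for shMETTL3 (adjusted p = 0.059 in both), and without shMETTL14 replicate 1 or 2 for shMETTL14 (adjusted p = 0.16 and 0.060).

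ITGA8 encodes the alpha8 chain, which pairs with beta1 and binds nephronectin. It had 39 and 58 counts in control, 16 and 14 in shControl, 8 and 13 in shMETTL3, and 0 and 2 in shMETTL14 cells. The shMETTL14 libraries were lowest. At these counts the ratio of shMETTL14 to shControl was 0.0596, with a 95% exact counting interval of 0.00691 to 0.235 (adjusted p = 0.0005, edgeR), where the interval covers counting error only. The fall in senescence was −1.30 ± 0.39 (adjusted p = 0.013), and was lost with DESeq2 (adjusted p = 0.17) and without control replicate 2 (−0.99, adjusted p = 0.21), shControl replicate 1 (−1.43, adjusted p = 0.073) or shControl replicate 2 (−1.15, adjusted p = 0.13).

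ITGA4, whose chain binds fibronectin and VCAM1, fell in senescence, and with either knockdown its libraries overlapped those of shControl. Normalised counts were 64.7 and 77.5 in control, 27.2 and 18.9 in shControl, 28.7 and 15.2 in shMETTL3, and 24.0 and 16.9 in shMETTL14 cells. All 6 senescent libraries lay below both control libraries. The change in senescence was −1.63 ± 0.31 (adjusted p = 0.00025, edgeR), and those with the knockdowns were −0.08 ± 0.38 and −0.16 ± 0.38 (adjusted p = 0.91 and 0.81).

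Of the 5 alpha genes known from leukocytes, ITGAX and ITGAE had enough counts for a test. ITGAX encodes the chain of CD11c, a marker of dendritic cells and macrophages. It had no count in control cells, 6 and 7 in shControl, 2 and 0 in shMETTL3, and 21 and 11 in shMETTL14 cells. Against a floor of 3 counts per library the senescent shControl level was at least 2.83-fold higher than control (adjusted p = 0.0036, edgeR). The ratio of shMETTL3 to shControl was 0.132 (95% exact counting interval 0.0145 to 0.585, adjusted p = 0.047), a call that was lost on leaving out any library other than shMETTL3 replicate 1 (adjusted p from 0.064 to 0.27) and by library size alone (adjusted p = 0.091). The leukocyte marker CD3E was at 0 in all libraries, PTPRC had 0 to 4 counts, and the 7 markers together had 1 to 9 counts in a library (3 and 5 in the shMETTL14 libraries). ITGAE ranged from 10.0 to 30.5 normalised counts and passed none of the 3 tests, though in senescence it was at −1.06 ± 0.41 (adjusted p = 0.055).

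Among the beta genes, ITGB1 carried the highest counts in every library. Its chain, beta1, pairs with most alpha chains named here. The gene lies at chr10:33189246-33247293 and gave normalised counts of 1691 and 1686 in control, 5916 and 5456 in shControl, 2947 and 3362 in shMETTL3, and 3791 and 3494 in shMETTL14 cells. Both knockdowns thus lay between control and shControl, with no overlap with either. ITGB1 rose by 1.75 ± 0.14 in senescence (adjusted p = 1.3e-10, edgeR) and fell with shMETTL3 (−0.85 ± 0.13, adjusted p = 3.5e-05) and with shMETTL14 (−0.64 ± 0.13, adjusted p = 0.00089). No other member was higher in senescence and lower with both knockdowns. The falls shrank to −0.22 and −0.28 and missed the threshold under scaling by library size alone (adjusted p = 0.18 and 0.11), and held without any 1 library. SNORA86, a small nucleolar RNA gene within ITGB1 with 42 to 205 counts in a library, left the changes at 1.74, −0.82 and −0.62 when taken off.

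ITGB5, whose chain pairs with alphaV as a vitronectin receptor, followed ITGA2 instead. It gave normalised counts of 319 and 284 in control, 538 and 505 in shControl, 912 and 776 in shMETTL3, and 191 and 321 in shMETTL14 cells. ITGB5 rose in senescence (0.79 ± 0.17, adjusted p = 0.00078, edgeR), rose further with shMETTL3 (0.69 ± 0.16, adjusted p = 0.0026) and fell with shMETTL14 (−1.03 ± 0.17, adjusted p = 7.9e-05). ITGA2 and ITGB5 were the only 2 members called in this order of directions. The senescence value was 0.29 by library size alone (adjusted p = 0.17), and the rise with shMETTL3 was 0.64 without shControl replicate 2 (adjusted p = 0.067).

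ITGB3, whose chain pairs with alphaV or with the platelet alphaIIb chain, rose in senescence from 47.8 and 32.2 to 150 and 116 normalised counts (1.73 ± 0.24, adjusted p = 2.2e-06, edgeR). It was at 195 and 154 with shMETTL3, a difference that did not pass the test (0.39 ± 0.20, adjusted p = 0.16), and at 69.0 and 102 with shMETTL14 (−0.64 ± 0.22, adjusted p = 0.037). The fall with shMETTL14 was lost under scaling by library size alone (−0.29, adjusted p = 0.36), with DESeq2 (adjusted p = 0.19), without shControl replicate 1 (−0.44, adjusted p = 0.35) and without shMETTL14 replicate 1 (−0.40, adjusted p = 0.39). THCAT158, on the opposite strand, shares 15.7% of the ITGB3 span and had 29 to 118 counts in a library, which moved the same way. ITGB8, whose chain pairs with alphaV and takes part in the activation of latent TGF-beta, was the 1 beta gene that fell in senescence, from 155 and 176 to 54.4 and 70.1 normalised counts (−1.41 ± 0.19, adjusted p = 1.9e-06). With the knockdowns it was at 76.0 to 83.2, above shControl but not past the threshold (adjusted p = 0.33 and 0.23).

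**Figure D2:**
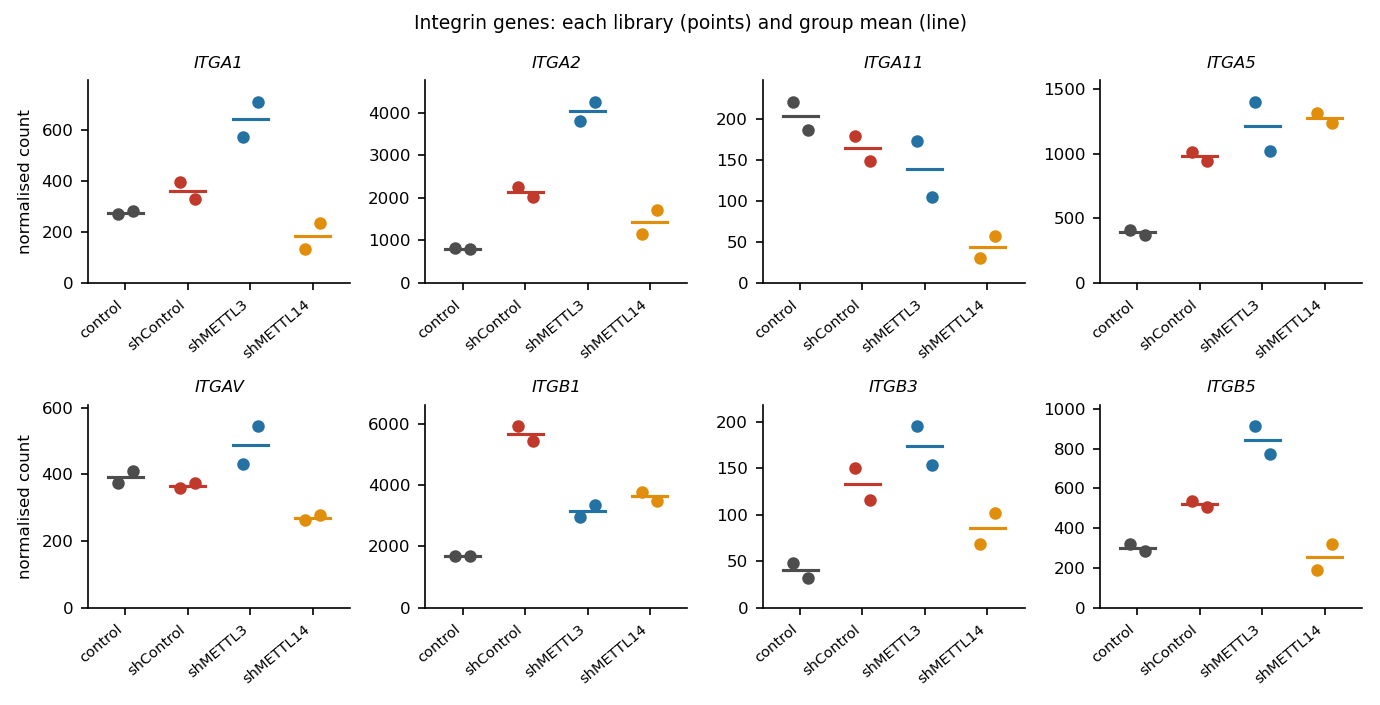
Normalised counts (y axis, from 0) of 8 integrin genes in each library (points) and the mean of the 2 libraries (line), by group (x axis). ITGA1, ITGA2, ITGAV and ITGB5 are highest with shMETTL3, ITGB1 is highest in shControl, and ITGA11 is lowest with shMETTL14.

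The 250 bases before the first RefSeq start of ITGB1 and of ITGB5 are shown because both were called in all 3 comparisons, and because each holds an ETS match (CCGGAA, both strands, in capitals). LAMA5 also meets both conditions, with a match from −191 to −186, and is not shown. Sequences are those of RefSeq on GRCh38.p14, both of the minus strand and written 5′ to 3′ along the gene, at chr10:32958231-32958480 for ITGB1 and chr3:124901419-124901668 for ITGB5.
ITGB1: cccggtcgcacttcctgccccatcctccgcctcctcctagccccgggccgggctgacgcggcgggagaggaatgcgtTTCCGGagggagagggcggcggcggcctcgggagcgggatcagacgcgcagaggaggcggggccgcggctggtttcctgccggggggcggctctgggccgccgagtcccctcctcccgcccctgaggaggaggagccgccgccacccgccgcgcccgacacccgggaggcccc
ITGB5: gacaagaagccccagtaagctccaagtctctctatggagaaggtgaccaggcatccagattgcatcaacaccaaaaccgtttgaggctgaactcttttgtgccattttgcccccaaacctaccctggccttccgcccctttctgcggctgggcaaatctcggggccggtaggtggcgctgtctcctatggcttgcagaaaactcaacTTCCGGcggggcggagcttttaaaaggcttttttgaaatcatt
The matches ran from base −173 to −168 in ITGB1 and from −43 to −38 in ITGB5, counted back from the start. Of the 38 members 26 had RefSeq promoters, 33 in all, each reaching from 250 bases before to 50 after a start. ETS matches were in 5 of the 33, beside 17.2% of all 35116 promoters of that length.

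All 5 laminin alpha genes fell in senescence, where 13.3% of all genes were lower. LAMA1, the alpha chain of the laminin of early embryos, went from 217 and 223 to 78.0 and 94.6 normalised counts (−1.35 ± 0.18, adjusted p = 1e-06, edgeR). LAMA2, the alpha chain of muscle basement membrane and the longest member at 633.4 kb, went from 190 and 226 to 129 and 114 (−0.78 ± 0.17, adjusted p = 0.00078). LAMA4, the alpha chain found around vessels and mesenchymal cells, went from 348 and 358 to 200 and 238 (−0.69 ± 0.14, adjusted p = 0.00059). LAMA5, the alpha chain of most adult basement membranes, went from 118 and 104 to 55.6 and 52.3 (−1.04 ± 0.23, adjusted p = 0.0013). In each of these 4 genes both shControl libraries were below both control libraries, and the falls passed the test in all alternatives. LAMA3, at 19 and 16 counts in control and 1 and 5 in shControl cells, also fell (−2.12 ± 0.64, adjusted p = 0.014). This call was lost with DESeq2 (adjusted p = 0.11), without control replicate 1 (−1.98, adjusted p = 0.097) and without shControl replicate 1 (−1.44, adjusted p = 0.23).

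With the knockdowns the laminin alpha genes parted. LAMA4 rose with shMETTL3 to 451 and 437 normalised counts (1.02 ± 0.14, adjusted p = 6.7e-06, edgeR) and was at 225 and 261 with shMETTL14 (0.15 ± 0.15, adjusted p = 0.53). LAMA5 fell further with shMETTL3, to 19.5 and 12.3 (−1.76 ± 0.32, adjusted p = 0.00017), and with shMETTL14, to 18.0 and 30.5 (−1.15 ± 0.30, adjusted p = 0.0058). It was the only member lower in all 3 comparisons. The fall of LAMA5 with shMETTL14 lost its call with DESeq2 (−1.16, adjusted p = 0.050) and without shControl replicate 1 (−1.11, adjusted p = 0.051) or shMETTL14 replicate 1 (−0.84, adjusted p = 0.14). LAMA1 was at 92.3 and 106 with shMETTL3 and at 110 and 88.5 with shMETTL14, overlapping shControl. LAMA2 was at 144 and 162 with shMETTL3 (adjusted p = 0.17) and at 79.0 and 92.7 with shMETTL14 (adjusted p = 0.059).

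The common beta and gamma chains of fibroblast laminins, LAMB1 and LAMC1, did not pass the test in senescence. LAMB1 was at 1099 and 1083 normalised counts in control, 1083 and 1004 in shControl, 1454 and 1460 in shMETTL3, and 517 and 700 in shMETTL14 cells. The rise with shMETTL3 (0.48 ± 0.14, adjusted p = 0.014, edgeR) was lost without shControl replicate 1 or 2 (0.53 and 0.42, adjusted p = 0.082 and 0.19), whereas the fall with shMETTL14 (−0.78 ± 0.15, adjusted p = 0.00027) held in all alternatives. LAMC1 was at 1366 and 1374 in control, 1436 and 1372 in shControl, 1103 and 980 in shMETTL3, and 1035 and 996 in shMETTL14 cells. Its falls with shMETTL3 (−0.43 ± 0.13, adjusted p = 0.018) and shMETTL14 (−0.47 ± 0.13, adjusted p = 0.012) depend on the scaling, since by library size alone the first turned to 0.18 (adjusted p = 0.36), the second was −0.11 (adjusted p = 0.62), and senescence gave −0.46 (adjusted p = 0.012) in place of 0.04. They were also lost without shControl replicate 1 (−0.41 and −0.44, adjusted p = 0.15 and 0.13) or shControl replicate 2 (−0.48 and −0.50, adjusted p = 0.092 and 0.076), and the first without shMETTL3 replicate 2 (−0.37, adjusted p = 0.081). LAMB2, the beta chain of synapses and the kidney filter, gave 228 and 206 in control, 313 and 262 in shControl, 203 and 153 in shMETTL3, and 260 and 239 in shMETTL14 cells. In senescence it was at the edge of the threshold (0.40 ± 0.15, adjusted p = 0.050 by edgeR, and from 0.0018 to 0.70 over 18 alternatives, of which 8 called it higher), and by library size alone the sign turned (−0.10, adjusted p = 0.70). LAMB2 fell with shMETTL3 (−0.69 ± 0.16, adjusted p = 0.0019), but not by library size alone (−0.08, adjusted p = 0.76) or without shControl replicate 1 (−0.57, adjusted p = 0.064).

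In senescence LAMB3 rose where LAMA3, the other chain known from epithelia, fell. LAMB3, at chr1:209788218-209825820, had 4 and 3 counts in control, 11 and 10 in shControl, 14 and 8 in shMETTL3, and 37 and 32 in shMETTL14 cells. The shMETTL14 libraries were above all others. LAMB3 reached the filter's level in both libraries of no other group, so its test with shMETTL14 rests on those libraries being high. Its changes were 1.93 ± 0.62 in senescence (adjusted p = 0.021, edgeR), −0.14 ± 0.50 with shMETTL3 (adjusted p = 0.87) and 1.54 ± 0.42 with shMETTL14 (adjusted p = 0.0093). These counts are small, and neither rise held with DESeq2 (adjusted p = 0.10 in senescence and 0.12 with shMETTL14), nor did the first by library size alone (1.44, adjusted p = 0.062). Leaving out any 1 library of the groups compared also lost them, with adjusted p from 0.061 to 0.13 in senescence (1.74 to 2.16 on the log2 scale) and from 0.050 to 0.12 with shMETTL14 (1.43 to 1.66). LAMA3 had 11 and 13 counts in shMETTL3 and 8 and 11 in shMETTL14 cells, above shControl in every library after scaling but not past the threshold (1.75 ± 0.67, adjusted p = 0.061 and 1.47 ± 0.70, adjusted p = 0.14). The epithelial markers EPCAM, CDH1, KRT5 and KRT14 had 0 to 2 counts in any library. KRT8 had 9 to 28 and KRT18 12 to 43, with their highest KRT18 counts in the shMETTL14 libraries (43 and 32), and the 7 epithelial markers together had 77 and 58 counts there beside 46 and 26 in shControl cells. Their part in the laminin result was not tested.

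The promoters of LAMA3 and LAMB3 are shown because these 2 genes were called in opposite directions in senescence. Neither call held with DESeq2 (adjusted p = 0.11 and 0.10). Each promoter shown holds the AP-1 letters TGANTCA (both strands, in capitals). For LAMB3, which has 3 starts in the RefSeq table, the third is shown, 1051 bases inside the gene. The first 2 starts hold no AP-1 match. The 1 start listed for LAMA3 lies 183567 bases inside the RefSeq gene, so it is an internal start, and the counts over the whole span do not separate the starts. The 250 bases before each of these starts are given from RefSeq on GRCh38.p14, at chr18:23872770-23873019 on the plus strand for LAMA3 and at chr1:209651375-209651624 on the minus strand for LAMB3.
LAMA3: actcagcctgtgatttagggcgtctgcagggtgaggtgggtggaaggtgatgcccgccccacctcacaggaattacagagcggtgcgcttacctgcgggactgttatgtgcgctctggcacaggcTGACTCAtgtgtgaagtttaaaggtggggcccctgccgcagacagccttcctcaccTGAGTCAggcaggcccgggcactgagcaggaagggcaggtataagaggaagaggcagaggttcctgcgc
LAMB3: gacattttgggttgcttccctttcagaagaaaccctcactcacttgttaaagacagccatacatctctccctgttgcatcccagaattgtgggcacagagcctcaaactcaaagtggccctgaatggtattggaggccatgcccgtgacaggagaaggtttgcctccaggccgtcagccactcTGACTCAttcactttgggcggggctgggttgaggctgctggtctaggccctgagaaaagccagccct
LAMA3 held 2 matches, from −125 to −119 and from −69 to −63, and LAMB3 held 1, from −67 to −61. Among members with a RefSeq promoter ITGA5 was the other with a match (−6 to 1, across the start). This made 3 of 33 member promoters, beside 7.71% of all 35116. NF-kappaB matches, searched by that factor's consensus on both strands, were in 6 of the 33, those of ITGA1, ITGA10, ITGA11, ITGA5 and the first 2 starts of LAMB3, whose windows overlap, beside 5.91% of all promoters. A match describes letters in the window and is not a measured site.

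**Figure D3:**
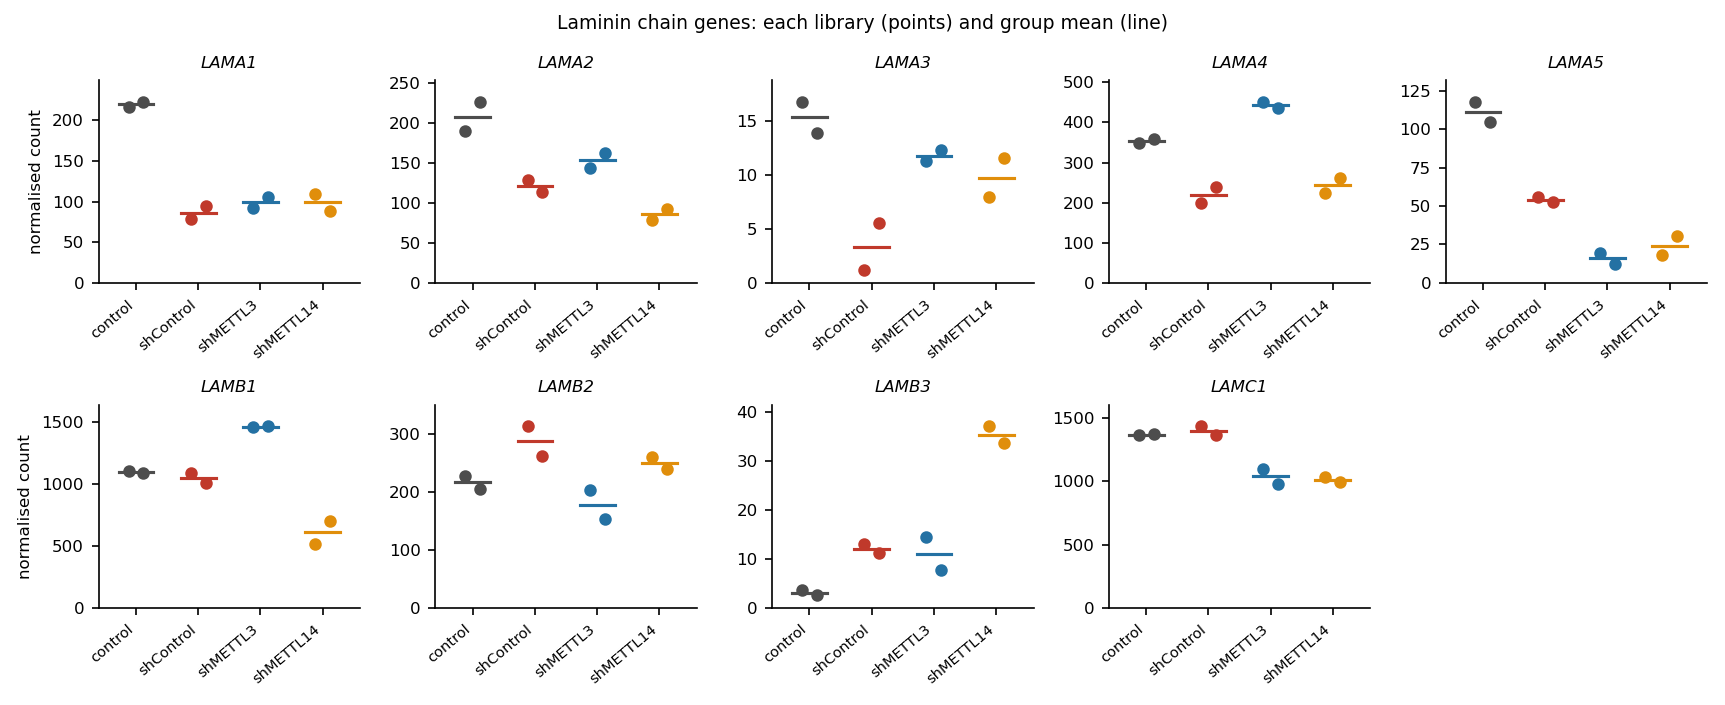
Normalised counts (y axis, from 0) of 9 laminin genes in each library (points) with the mean of the 2 libraries (line), by group (x axis). The 5 LAMA genes are lower in shControl than in control cells, and LAMB1 is highest with shMETTL3. LAMB3, which passed the filter through the shMETTL14 libraries, is highest with shMETTL14.

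Compared directly, shMETTL14 and shMETTL3 cells differed in 15 of the 25 members, with 5 higher (16.5% of all genes tested) and 10 lower (18.7% of all genes) with shMETTL14. By library size alone the split was 3 and 11 (1177 and 3486 of all genes), and with DESeq2 2 and 10 (1055 and 1602 of all genes). The lower members included the 3 collagen-binding alpha genes tested, with log2 differences of −1.80 ± 0.18 for ITGA1 (adjusted p = 2.5e-08, edgeR), −1.49 ± 0.16 for ITGA2 (adjusted p = 4.9e-08) and −1.68 ± 0.26 for ITGA11 (adjusted p = 1.1e-05). ITGB5 differed by −1.72 ± 0.17 (adjusted p = 2e-08) and LAMB1 by −1.26 ± 0.15 (adjusted p = 1.8e-07). These 5 differences passed the test in all alternatives. ITGB3, ITGAV, LAMA4 and LAMA2 differed by −1.03 to −0.84, past the threshold in all alternatives, and ITGA8 was the tenth, with a ratio of 0.0990 (95% exact counting interval 0.0113 to 0.405). That of ITGA8 was lost without shMETTL14 replicate 1 (adjusted p = 0.086).

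Members higher with shMETTL14 than with shMETTL3 included ITGA3 (0.50 ± 0.15, adjusted p = 0.011, edgeR) and LAMB2 (0.49 ± 0.16, adjusted p = 0.017). Both lost their calls without shMETTL14 replicate 1 (adjusted p = 0.20 and 0.15), without shMETTL3 replicate 2 (adjusted p = 0.085 and 0.16), with DESeq2 (adjusted p = 0.084 and 0.11) and by library size alone (0.25 and 0.24, adjusted p = 0.32 and 0.36). ITGAX and LAMB3 were also among the 5, with both shMETTL14 libraries above both of shMETTL3, but they entered the test through the shMETTL14 libraries, and without them 3 of 23 members were higher. ITGB1 and ITGA5 did not pass this test (0.21 ± 0.13, adjusted p = 0.24 and 0.08 ± 0.14, adjusted p = 0.71).

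Against control cells, senescent shMETTL3 cells had 10 members higher (20.1% of all genes tested) and 8 lower (20.1% of all genes), and senescent shMETTL14 cells had 8 higher (19.7% of all genes) and 12 lower (20.5% of all genes). By library size alone these were 12 and 5 (2899 and 2031 of all genes), and 8 and 12 (1826 and 3078 of all genes). Leaving out ITGAX and LAMB3, 9 and 6 members were higher. The rise of ITGB1 over control was 0.90 ± 0.14 with shMETTL3 (adjusted p = 5.2e-06, edgeR) and 1.11 ± 0.14 with shMETTL14 (adjusted p = 2.3e-07), smaller than in shControl cells but still past the threshold. ITGA5 was higher by 1.63 ± 0.15 and 1.70 ± 0.15 (adjusted p = 1.4e-09 and 6.6e-10). ITGA2 was higher by 2.34 ± 0.16 with shMETTL3 and by 0.85 ± 0.16 with shMETTL14 (adjusted p = 4.8e-12 and 8.8e-05). The shMETTL14 libraries of ITGB5 lay on both sides of the control libraries (−0.24 ± 0.18, adjusted p = 0.30), and those of shMETTL3 above them (1.48 ± 0.17, adjusted p = 4.6e-08). LAMA1 and LAMA5 were below control with both knockdowns (−1.14 ± 0.17 and −1.15 ± 0.17 for LAMA1, −2.80 ± 0.28 and −2.20 ± 0.26 for LAMA5), each with an adjusted p of at most 4.4e-06. LAMA4 was above control in both shMETTL3 libraries at the edge of the threshold (0.33 ± 0.13, adjusted p = 0.051, and from 0.023 to 0.22 over 18 alternatives, of which 6 called it higher) and fell below it with shMETTL14 (−0.54 ± 0.14, adjusted p = 0.0030). The fall of LAMA4 below control with shMETTL14 shrank to −0.42 without shMETTL14 replicate 1. LAMA3 did not differ past the threshold from control with either knockdown (adjusted p = 0.57 and 0.32).

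Per kilobase of gene, ITGB1 stood highest in control cells at 29.1 normalised counts, followed by LAMB2 at 18.0, ITGA5 at 16.4, LAMB1 at 13.7, LAMC1 at 11.2 and ITGA2 at 7.58. LAMB2 (17.1 and 19.0 in the 2 libraries) and ITGA5 (15.6 and 17.2) overlapped, and the others named here did not. In shControl cells the order was ITGB1 at 97.9, ITGA5 at 40.8, LAMB2 at 23.8, ITGA2 at 20.3, LAMB1 at 13.1 and LAMC1 at 11.5, with no overlap between neighbours. With shMETTL3 ITGB1 (50.8 and 57.9 in the 2 libraries, lowest first) and ITGA5 (42.6 and 58.4) overlapped, and with shMETTL14 ITGB1 at 62.8 and ITGA5 at 53.3 did not. The level of ITGA5 may include transcription of LOC102724050. Over all 25 members, 7 of 24 neighbouring pairs in the order overlapped in control, 8 in shControl, 11 in shMETTL3 and 14 in shMETTL14 cells. Of the laminin alpha genes LAMA4 had the highest level in control cells (2.40) and LAMA3 the lowest (0.0579).

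**Figure D4:**
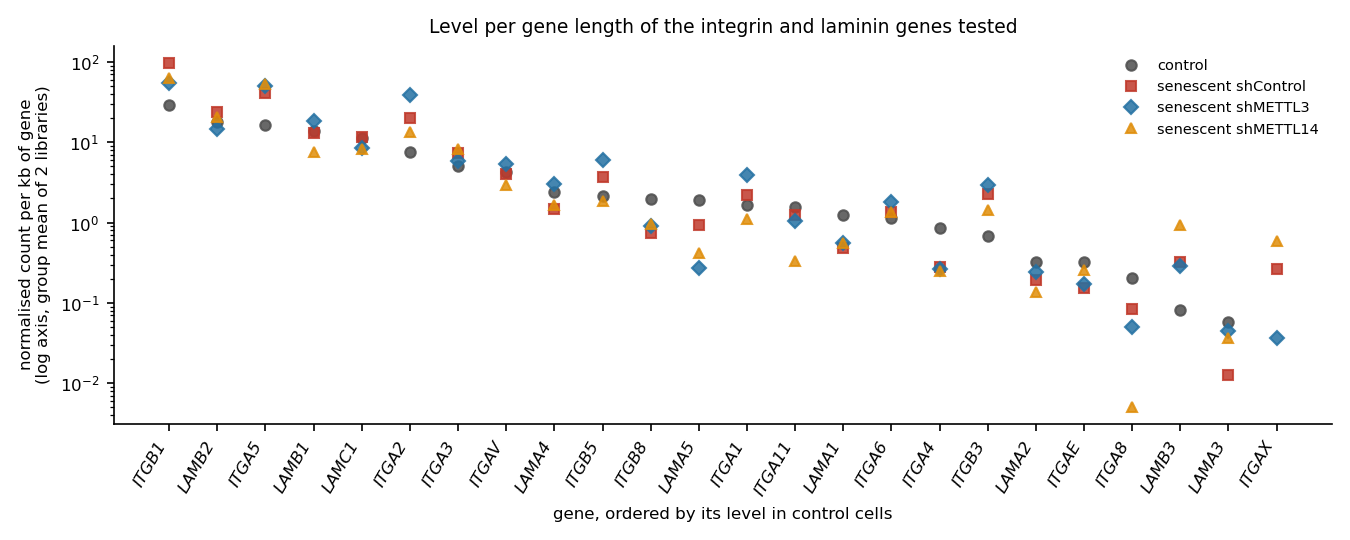
Normalised count per kilobase of gene (y axis, log scale, mean of 2 libraries) for 24 of the 25 members tested, ordered by their level in control cells (x axis), with 1 symbol per group. ITGB1 has the highest mean in every group, though in shMETTL3 cells its libraries overlap those of ITGA5. Points at 0 (ITGAX in control) and 1 other member are not drawn.

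The proteins that join integrins to actin did not move as 1 group. Of 29 such genes 26 were tested, with 5 higher and 9 lower in senescence (13.3% and 13.3% of all genes), 5 higher and 9 lower with shMETTL3 (12.3% and 11.2%), and 4 higher and 5 lower with shMETTL14 (9.15% and 12%). Their median changes were −0.25, −0.22 and −0.08, beside −0.03, −0.03 and −0.00 over all genes. PXN, the adaptor paxillin, rose in senescence (0.74 ± 0.15, adjusted p = 0.00054, edgeR) and with shMETTL14 (0.68 ± 0.15, adjusted p = 0.0014). TNS3, a tensin that binds beta-chain tails, fell in senescence (−1.57 ± 0.17, adjusted p = 4.4e-08), rose with shMETTL3 (0.80 ± 0.17, adjusted p = 0.00096) and fell with shMETTL14 (−0.83 ± 0.18, adjusted p = 0.0012). TLN1, the talin that activates integrins in most cells, did not pass the test in senescence (0.05 ± 0.14, adjusted p = 0.83) and fell with shMETTL3 (−0.55 ± 0.14, adjusted p = 0.0062). TLN2, its relative, rose with shMETTL3 (1.06 ± 0.15, adjusted p = 1.2e-05), as did PTK2, the focal adhesion kinase (0.69 ± 0.13, adjusted p = 0.00040).

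Among 17 partners of laminin in basement membranes and other laminin receptors 15 were tested. In senescence 3 were lower (HSPG2, NTN4 and SDC4, where 13.3% of all genes were lower), with shMETTL3 4 were higher and 4 lower (12.3% and 11.2% of all genes), and with shMETTL14 1 was higher and 6 were lower (9.15% and 12% of all genes). The medians were −0.06, −0.41 and −0.35, beside the same values over all genes as above. With shMETTL14 all 4 collagen IV genes tested fell, COL4A1 (−0.92 ± 0.16, adjusted p = 0.00018, edgeR), COL4A2 (−1.15 ± 0.15, adjusted p = 3.7e-06), COL4A5 (−1.29 ± 0.17, adjusted p = 3.2e-06) and COL4A6 (−1.59 ± 0.21, adjusted p = 3.4e-06). COL4A1 and COL4A2, which encode the chains of the most widespread collagen IV, rose with shMETTL3 (0.83 ± 0.16, adjusted p = 0.00042 and 0.45 ± 0.15, adjusted p = 0.031), the directions seen for LAMB1. NID1, the linker nidogen 1, rose with shMETTL3 (1.31 ± 0.20, adjusted p = 2.6e-05), and HSPG2, the proteoglycan perlecan, fell (−1.54 ± 0.18, adjusted p = 3.3e-07). SDC4, a syndecan of focal adhesions, rose with shMETTL14 (1.44 ± 0.15, adjusted p = 8.2e-08). Of the 8 fibroblast markers 6 fell in senescence (13.3% of all genes) and 7 fell with shMETTL14 (12% of all genes). VIM rose in senescence (0.44 ± 0.13, adjusted p = 0.013, edgeR). The part of these markers in the integrin and laminin results was not tested.

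The other 13 members were not tested. They had 1 to 46 counts in all 8 libraries together and at most 11 in a library, so that no difference was detectable at this depth. They were ITGA10, ITGA7 and ITGA9, the platelet chain ITGA2B, the leukocyte chains ITGAD, ITGAL, ITGAM, ITGB2 and ITGB7, the epithelial chains ITGB4 and ITGB6, and the laminin chains LAMB4 and LAMC3. ITGA9 had the most, 46 counts over a span of 367.5 kb, and the antisense row ITGA9-AS1, which overlaps it, had 167. ITGB2, the beta chain shared by the leukocyte integrins, had 1 count, beside the 47 counts of ITGAX.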

How the data were processed

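The deposited table holds raw read counts per gene that the authors made with HOMER over whole gene bodies on hg19, after alignment with STAR, and a Drosophila spike-in used in the study was not used here. All 8 libraries (2 per group) were fitted together in edgeR 4.0.16 (R 4.3.3) with TMM scaling, genes were kept by filterByExpr at a minimum count of 10, and quasi-likelihood tests were adjusted by Benjamini-Hochberg over all genes tested, with a threshold of 0.05. Replicates of a typical gene varied by 10.6% beyond counting error, a value shared by all groups. The groups were not alike. Variance between the 2 libraries, over that of counting, was 1.71 in control, 1.52 in shControl, 5.01 in shMETTL3 and 2.42 in shMETTL14 cells. Libraries held 14897360 to 20306299 counts. The p-values weigh each difference between groups against the spread between libraries of a group, estimated from all 8 libraries together.

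The members, groups and gene lists were chosen with earlier results of these data known. Members past the threshold in 1 of the 3 main comparisons were given with every library's value, and the others by range. DESeq2 1.42.0, other scalings and filters, a replicate block, removal of nested genes' counts and leaving out each library served as alternatives. Exact counting intervals (95%) and the floor of 3 counts cover counting error only. Some results are not reported here. The edgeR and DESeq2 steps were tested on simulated data. Promoter sequences came from RefSeq on GRCh38.p14, another build than that of the counts, and were read with Python 3.11.15.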

Additional observations from a re-analysis of the deposited data

How the results depend on the processing

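Of 95 calls among the members over 6 comparisons, DESeq2 could be set against 93, of which 77 held. All 95 held without a filter on low counts and with nested genes' counts subtracted (an alternative chosen after seeing the data), and 94 with upper-quartile scaling. Leaving out 1 library kept 80 to 93 of them. Library size alone kept 77. Under it the members lower in senescence numbered 13 (5015 of all 12844 genes). Those higher and lower were 13 and 1 with shMETTL3 (5287 and 353 of all genes) and 8 and 6 with shMETTL14 (3163 and 709 of all genes). Those higher with shMETTL14 than with shMETTL3 numbered 3 (1177 of all genes), and those lower with shMETTL3 than in control 5 (2031 of all genes). LAMC1 turned to −0.46 in senescence and to 0.18 with shMETTL3, in a scaling that moved the median of all genes. With DESeq2 0 members were higher with shMETTL14 (3 at an unadjusted p below 0.05, beside 4 with edgeR) and 2 were higher than with shMETTL3. Over all genes these were 492 and 1055, beside 1175 and 2118 with edgeR. With at least 10 counts in every library 0 members (1 unadjusted) were higher with shMETTL14 and 2 higher than with shMETTL3, beside 988 and 1839 of 9367 genes. In that setting 5 members were higher with shMETTL14 than in control (1890 of all genes), since the filter removes LAMB3 and ITGAX, among others.

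Without 1 library at a time, members higher and lower ranged from 7 to 11 and 6 to 9 in senescence, 2 to 7 and 3 to 8 with shMETTL3, 0 to 3 and 6 to 12 with shMETTL14, 1 to 5 and 9 to 11 between the knockdowns, 8 to 12 and 6 to 9 for shMETTL3 against control, and 8 to 8 and 9 to 13 for shMETTL14 against control. The lowest counts came without shControl replicate 2 (2 higher with shMETTL3, 0 higher with shMETTL14), without shControl replicate 1 (3 lower with shMETTL3, 6 lower with shMETTL14) and without shMETTL14 replicate 1 (0 higher and 7 lower with shMETTL14, 1 higher than with shMETTL3). Without shControl replicate 1 or shMETTL14 replicate 2, 1 member was higher with shMETTL14, and without shMETTL3 replicate 2, 3 were higher with shMETTL14 than with shMETTL3. Calls over all genes tested also changed with the library left out, so these ranges are not particular to the members. A group left with 1 library was assumed to vary like the others. The groups did not vary alike, since variance between libraries over that of counting was 5.01 in shMETTL3 and 1.52 to 2.42 in the others.

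The replicate numbers did not pair the libraries, since deviations of same-numbered libraries correlated at −0.04 to 0.08. With a replicate block 10 members were higher and 8 lower in senescence, 6 and 5 with shMETTL3, and 3 and 11 with shMETTL14. Over all genes these were 1731 and 1673, 1564 and 1445, and 1168 and 1530. The block lost 1 call, that of ITGAX with shMETTL3 (adjusted p = 0.055), and added ITGA5 with shMETTL14 (adjusted p = 0.042), LAMA4 with shMETTL3 against control (adjusted p = 0.042) and LAMB2 in senescence (adjusted p = 0.029).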
